A study of Danio rerio with 13 samples.

Results

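A set of 10 photoreceptor shutoff genes was followed in whole zebrafish larvae: the opsin kinase genes grk1a, grk1b, grk7a and grk7b, the rod-type arrestin genes saga and sagb, the cone arrestin genes arr3a and arr3b, and the recoverin genes rcvrn2 and rcvrn3. They were chosen by symbol, each symbol stands once among the 32417 rows of the count table, and all 10 were among the 22158 rows that passed the filter on low counts. RNA was sequenced from larvae of the Tg(fli1:EGFP) line, in which a fli1 promoter drives EGFP in endothelial cells, so every group carries that transgene. The 3 groups were untreated aldh3b1+/+ larvae (wild type, 5 libraries), untreated aldh3b1-/- larvae that carry a CRISPR knockout of an aldehyde dehydrogenase gene (knockout, 3 libraries), and aldh3b1+/+ larvae treated with 2-HD (5 libraries). What 2-HD stands for is not in the labels, which also give no dose, duration, larval age, clutch, number of pooled larvae, number of founder lines or vehicle-treated group. A vehicle effect and a 2-HD effect therefore cannot be told apart. The p-values below set differences between groups only against the spread of libraries within groups, which may be technical.

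A photoreceptor responds to light when its opsin, once activated by a photon, switches on transducin and, through it, a phosphodiesterase. The response ends when an opsin kinase phosphorylates the active opsin and an arrestin then caps it, while recoverin, a calcium sensor, holds the kinase back when calcium is high. Rods and cones use different copies of these genes, and in zebrafish several were duplicated, so that kinases, arrestins and recoverins each come as pairs. In zebrafish larvae vision rests largely on cones, and loss of Grk7a or of Arr3a is known to slow the recovery of cones after light.

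Totals ranged from 17975289 to 19482661 counts per library. The detection limit was set at 3 counts, or 0.148 to 0.173 CPM (counts per megacount of library total, scaled by TMM factors). The lowest member count was 65, for grk7b in a library treated with 2-HD, so every member lay well above that limit. Expression of aldh3b1 itself was 4.62 to 7.45 CPM in wild type, 4.49 to 5.59 CPM in the knockout and 8.13 to 13.2 CPM with 2-HD, so that the ranges of knockout and wild type overlapped and the transcript level does not check the labels. On the second principal component wild type replicate 14 (-41.6) and 2-HD replicate 1 (-53.8) stood apart from the other 11 libraries (-4.36 or above). Counts of calls among the members are given below with and without them, as are those of some of the gene lists. Photoreceptor markers were present, among them rho, the rod opsin gene, at 2464 CPM on average in wild type, and opn1sw1, the ultraviolet cone opsin gene, at 3477 CPM. The tissue source of the members' own reads was not tested. The libraries are of whole larvae, and fewer photoreceptors and less RNA per photoreceptor cannot be told apart in any value that follows.

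All 10 shutoff genes had their highest mean level in untreated wild type. The knockout mean came next for 7 of them, and for grk1a, grk7a and saga the 2-HD mean came next and the knockout mean was lowest. With 2-HD 9 of the 10 genes were lower by the test, all but grk1a, and in the knockout 1 was lower, grk1a. Of all 22158 genes, 42.4% were called with 2-HD (19.7% lower and 22.7% higher) and 5.97% in the knockout (1.86% lower and 4.1% higher). The median log2 fold change of the members was -0.75 with 2-HD and -0.53 in the knockout, beside 0.02 and 0.00 for all genes tested. Both comparisons use the same 5 wild-type libraries, so that a high wild-type value enters both.

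**Figure D1:**
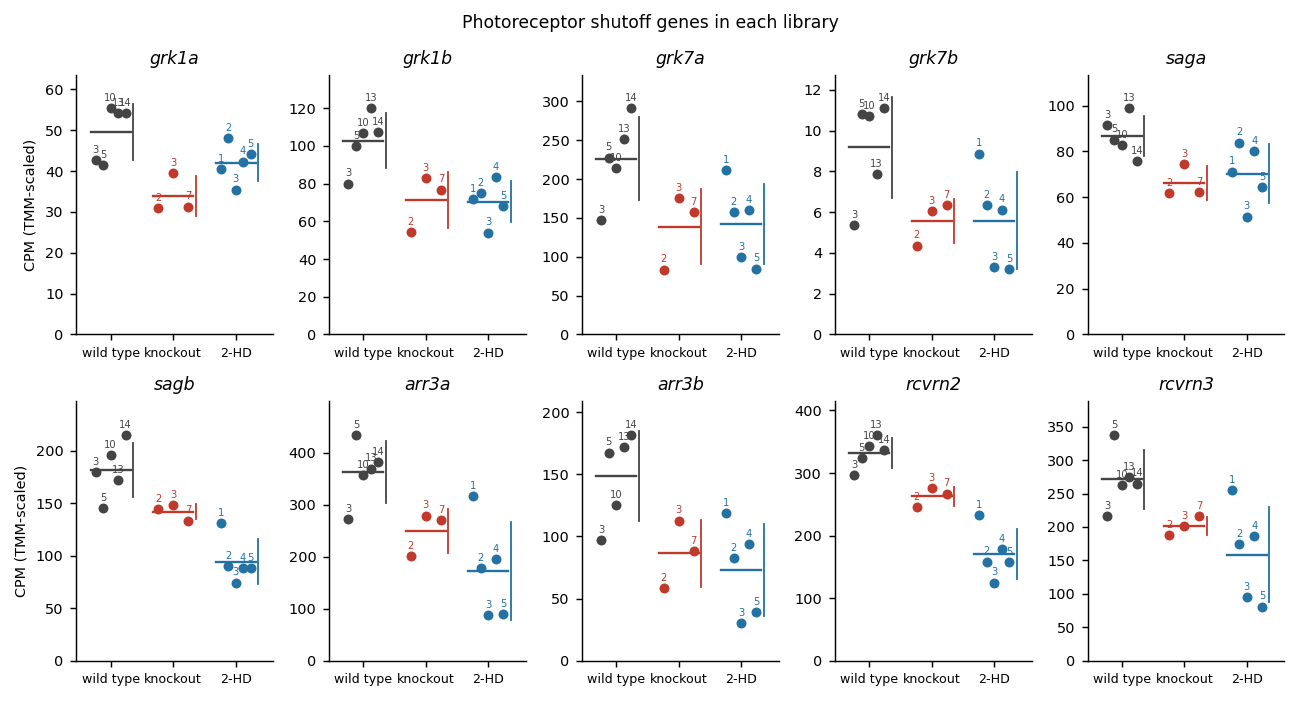
Level of each shutoff gene in CPM (vertical axis from 0, scaled by TMM factors) in each library, with the replicate number above each point, the group mean as a horizontal line and 1 SD to either side as a vertical line. The wild-type mean is the highest in all 10 panels, and 2-HD replicates 3 and 5 lie far below 2-HD replicate 1 for grk7a, grk7b, arr3a, arr3b and rcvrn3.

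Among the kinases, grk1a, the rhodopsin kinase gene of rods, was the member whose knockout values fell past the test. Its level in wild type replicates 3, 5, 10, 13 and 14 was 42.6, 41.5, 55.3, 54.2 and 54.2 CPM. In knockout replicates 2, 3 and 7 it was 30.8, 39.4 and 31.3 CPM, and in 2-HD replicates 1 to 5 it was 40.6, 48.0, 35.5, 42.3 and 44.1 CPM. Every knockout library lay below every wild-type library, whereas the 2-HD libraries overlapped both other groups. Wild type averaged 49.6 ± 6.89 CPM (SD, n = 5) and the knockout 33.9 ± 4.83 CPM (SD, n = 3), which is 1.46-fold lower (log2 fold change -0.55, SE 0.13, edgeR adjusted p = 0.0285). The 2-HD mean of 42.1 ± 4.61 CPM (SD, n = 5) was not called (log2 fold change -0.24, SE 0.11, edgeR adjusted p = 0.0946), except in the fit without wild type replicate 5 (adjusted p = 0.0419). The knockout call was lost without wild type replicate 10 or 13 and without knockout replicate 2, 3 or 7, with adjusted p-values of 0.06 to 0.164 in edgeR. The log2 difference between knockout and 2-HD was -0.31 (95% interval -0.59 to -0.04, edgeR adjusted p = 0.138), so that a different response of grk1a to the 2 conditions was not established.

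Its paralogue grk1b fell with 2-HD. The wild-type libraries held 80.0, 99.8, 107, 119.9 and 107 CPM in the order used above, the knockout libraries 54.3, 82.9 and 76.9 CPM, and the 2-HD libraries 71.8, 75.0, 54.0, 83.4 and 68.1 CPM. Only wild type replicate 3 reached into the range of the other groups. The log2 fold change was -0.55 with 2-HD (SE 0.13, edgeR adjusted p = 0.00487) and -0.53 in the knockout (SE 0.16, edgeR adjusted p = 0.0602). The latter passed the test without wild type replicate 3 (adjusted p = 0.028) and without 2-HD replicate 3 (adjusted p = 0.0491). DESeq2 called it too (adjusted p = 0.0171).

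The gene of the cone opsin kinase, grk7a, varied more between libraries than grk1a or grk1b. It stood at 147, 227, 214, 252 and 291 CPM in wild type, at 83.5, 175 and 157 CPM in the knockout and at 212, 157, 99.1, 159.7 and 84.7 CPM with 2-HD. Wild type replicate 3, knockout replicate 2 and 2-HD replicates 3 and 5 were the low libraries, and each treated or mutant group overlapped wild type through replicate 3. The log2 fold change was -0.67 with 2-HD (SE 0.25, edgeR adjusted p = 0.0454) and -0.71 in the knockout (SE 0.30, edgeR adjusted p = 0.159). Its paralogue grk7b, at 5.37 to 11.1 CPM in wild type, 4.36 to 6.36 CPM in the knockout and 3.22 to 8.88 CPM with 2-HD, had log2 fold changes of -0.72 with 2-HD (SE 0.27, edgeR adjusted p = 0.042) and -0.71 in the knockout (SE 0.31, edgeR adjusted p = 0.175). Both 2-HD calls lay near the threshold. That of grk7a was lost without any 1 of wild type replicates 5, 10, 13 and 14, knockout replicate 7 and 2-HD replicates 2, 3, 4 and 5 (adjusted p from 0.0534 to 0.11), and that of grk7b without any 1 of wild type replicates 5, 10 and 14, knockout replicate 3 and 2-HD replicates 2, 3, 4 and 5 (adjusted p from 0.0532 to 0.102).

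The rod-type arrestin genes encode S-antigen, and both were lower with 2-HD. For sagb the wild-type libraries held 179.7, 145, 196, 172 and 215 CPM, the knockout libraries 145, 148 and 133 CPM, and the 2-HD libraries 131, 89.9, 74.4, 88.5 and 88.0 CPM. All 5 treated libraries lay below all wild-type and all knockout libraries, and the knockout overlapped wild type only at its lowest library, replicate 5. The level with 2-HD was 1.92-fold lower than in wild type (log2 fold change -0.94, SE 0.13, edgeR adjusted p = 0.000117), and the knockout stood above 2-HD by 0.59 on the log2 scale (SE 0.15, edgeR adjusted p = 0.0343). In the knockout itself the log2 fold change from wild type was -0.35 (SE 0.15, edgeR adjusted p = 0.17). The call between knockout and 2-HD was lost without any 1 of knockout replicates 2, 3 and 7 and 2-HD replicates 2, 3, 4 and 5 (adjusted p from 0.0641 to 0.112).

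The other copy, saga, stood at 75.9 to 98.8 CPM in wild type, 61.7 to 74.6 CPM in the knockout and 51.5 to 83.9 CPM with 2-HD. The knockout libraries lay just below the lowest wild-type library, and the 2-HD libraries overlapped both groups. The log2 fold change was -0.31 with 2-HD (SE 0.12, edgeR adjusted p = 0.0491) and -0.39 in the knockout (SE 0.14, edgeR adjusted p = 0.0955). The 2-HD call was lost without any 1 of wild type replicates 3, 5, 10 and 13, the 3 knockout replicates and 2-HD replicates 1, 3 and 5 (adjusted p from 0.0538 to 0.119).

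The cone arrestin genes had the lowest fold changes of all members with 2-HD. For arr3a, the arrestin gene of red and green cones in zebrafish, wild type held 272, 435, 357, 369 and 381 CPM, the knockout 202, 279 and 269.7 CPM, and the 2-HD libraries 316, 178, 88.0, 195 and 89.0 CPM. In 2-HD replicate 1 the gene stayed within the wild-type range, while replicates 3 and 5 held about as little as each other and less than any other library. The level was 2.09-fold lower with 2-HD (log2 fold change -1.07, SE 0.28, edgeR adjusted p = 0.00761), and the log2 fold change in the knockout was -0.54 (SE 0.33, 95% interval -1.24 to 0.17, edgeR adjusted p = 0.337). Knockout libraries exceeded 2-HD libraries by 0.53 on the log2 scale (SE 0.32, edgeR adjusted p = 0.317), and by an amount that passed the test without 2-HD replicate 1 (adjusted p = 0.0369).

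For arr3b, the arrestin gene of blue and ultraviolet cones in zebrafish, wild type held 96.9, 167, 125, 172 and 182 CPM, the knockout 58.5, 113 and 88.1 CPM, and the 2-HD libraries 118.8, 82.7, 30.5, 93.6 and 39.4 CPM. The low libraries were those of arr3a, namely wild type replicate 3, knockout replicate 2 and 2-HD replicates 3 and 5. The level was 2.04-fold lower with 2-HD (log2 fold change -1.03, SE 0.32, edgeR adjusted p = 0.0176). In the knockout the log2 fold change was -0.78, the lowest of the members there, but with an SE of 0.37 it was not called (edgeR adjusted p = 0.21).

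The recoverin gene rcvrn2 separated the 3 groups with no overlap. It stood at 296, 324, 343, 361 and 336 CPM in wild type, at 246, 276 and 267 CPM in the knockout and at 233, 158, 125, 178 and 158 CPM with 2-HD. Every knockout library thus lay below wild type and above 2-HD. The level with 2-HD was 1.95-fold lower than in wild type (log2 fold change -0.96, SE 0.13, edgeR adjusted p = 7.72e-05), the smallest adjusted p among the members, and knockout libraries stood above 2-HD by 0.62 on the log2 scale (SE 0.14, edgeR adjusted p = 0.0223). The log2 fold change in the knockout was -0.34 (SE 0.14, edgeR adjusted p = 0.166) and did not pass the test, although the ranges were apart. The call between knockout and 2-HD was lost without any 1 of knockout replicates 2, 3 and 7 and 2-HD replicate 5 (adjusted p from 0.0522 to 0.0865).

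For rcvrn3 the wild-type libraries held 216, 338, 262, 275 and 265 CPM, the knockout libraries 188, 201 and 216 CPM, and the 2-HD libraries 255, 174, 95.6, 186 and 80.9 CPM. The knockout libraries were close to each other and just below wild type, and 2-HD replicate 1 again lay within the wild-type range. The log2 fold change was -0.78 with 2-HD (SE 0.24, edgeR adjusted p = 0.0182) and -0.43 in the knockout (SE 0.28, edgeR adjusted p = 0.373). With 2-HD, grk1b, sagb, arr3a, arr3b, rcvrn2 and rcvrn3 were called whichever library was left out, with adjusted p-values of at most 0.0452 in edgeR.

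**Figure D2:**
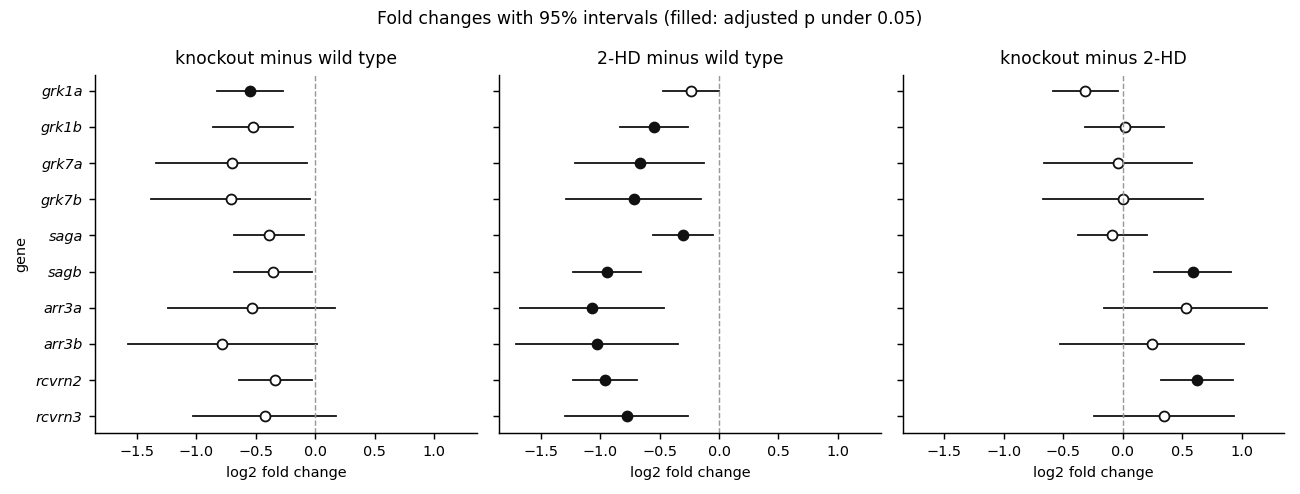
Log2 fold change of each shutoff gene (points, with 95% intervals) in the 3 comparisons, filled where the edgeR adjusted p over all 22158 genes was under 0.05. All points lie below 0 in both comparisons with wild type, 9 are filled with 2-HD and 1 in the knockout, and sagb and rcvrn2 are filled above 0 between knockout and 2-HD.

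Counted over the members, 10 of 10 log2 fold changes were below 0 in the knockout and 10 of 10 with 2-HD, beside 49.8% and 47.8% of all genes. The members are not independent observations, since they varied together within groups. With group means removed, r of log2 CPM over the 13 libraries ran from 0.09 (grk1a with rcvrn3) to 0.97 (arr3a with rcvrn3). In the knockout, 4 members (grk1a, saga, rcvrn2 and rcvrn3) had all libraries below all wild-type libraries, against 8.01% of all genes below and 7.45% above in that way. An unadjusted edgeR p under 0.05 was reached there by 7 of 10 members and by 5488 of 22158 genes. That fit estimates the spread of each gene over all 3 groups, 2-HD included. With only knockout and wild-type libraries in the fit, 10 of 10 members and 5135 genes reached that level, and 0 members were called after adjustment. With 2-HD only sagb and rcvrn2 had all libraries below all wild-type libraries, against 12.2% of all genes below and 13.5% above. Between knockout and 2-HD, sagb and rcvrn2 were higher in the knockout, 2 of 10 against 3.93% of all genes called higher there, and 0 were called lower, against 3.06% (6.98% in either direction). The same 2 were the members whose knockout libraries all lay above all 2-HD libraries (8.97% of all genes above and 8.82% below). For grk1b, grk7a and grk7b the log2 difference between knockout and 2-HD was close to 0 (0.02, -0.04 and 0.01), with 95% intervals of -0.31 to 0.35, -0.66 to 0.59 and -0.67 to 0.68. Intervals of that width do not show that the conditions act alike on these genes. Without wild type replicate 14 and 2-HD replicate 1 the counts were 1 lower in the knockout, 9 lower with 2-HD and 3 higher in the knockout than with 2-HD, the third being arr3a. In these 3 comparisons 1373, 9514 and 3494 of all genes were then called in either direction, against 1322, 9398 and 1547 with all libraries.

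The members differed in how much they varied within a group. Over the 5 libraries treated with 2-HD, the highest value divided by the lowest was 3.89 for arr3b, 3.59 for arr3a, 3.15 for rcvrn3, 2.76 for grk7b and 2.50 for grk7a. The same quotient was 1.35 for grk1a, 1.54 for grk1b, 1.63 for saga, 1.76 for sagb and 1.86 for rcvrn2. The median quotient of the 15382 genes with a mean of at least 5 CPM with 2-HD was 1.29, and 98.0% or more of these genes had a smaller quotient than each of the first 5 members. The share was 94% for rcvrn2, 91.9% for sagb, 87.6% for saga, 83.3% for grk1b and 62.4% for grk1a. Quotients were also read for the gene lists described below, without the limit of 5 CPM. The median quotient with 2-HD was 1.58 over 24 shutoff partners (highest 3.33), 1.47 over 30 activation genes (highest 5.23, for pde6ha, an inhibitory phosphodiesterase subunit gene of cones) and 1.42 over 24 factor and structural genes (highest 2.91). In wild type these 3 medians were 1.47, 1.47 and 1.42. Lists outside photoreceptors had 2-HD medians of 1.41 (relatives), 1.40 (pineal), 1.39 (lens), 1.39 (other retinal cells) and 1.32 (neurons). The median of the members was 2.18 with 2-HD and 1.53 in wild type. Replicates 3 and 5 were the lowest and second lowest 2-HD libraries for 9 of the 10 members, grk1a being the exception, and replicate 1 was the highest for 7. Low values in replicates 3 and 5 were not particular to the members. Both were also lowest in the summed CPM of shutoff partners, activation, factor and structural, relatives, other retinal and neuronal lists. For activation genes these sums were 8073 and 9466 CPM, against 10369 to 11034 CPM in the other 2-HD libraries. The pineal and lens sums did not have that order. Relative to the wild-type mean, the median member stood at 39.3% in 2-HD replicate 3, 42.5% in replicate 5, 66.7% in replicate 2, 67.8% in replicate 4 and 81.9% in replicate 1. In the knockout, replicate 2 was lowest for 9 members (median 58.9% of the wild-type mean, against 72.6% in replicate 7 and 78.5% in replicate 3), and in wild type replicate 3 was lowest for 7 (median 78.8%). Wild type replicate 3 was also the lowest wild-type library in the sums of all the lists just named except lens.

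**Figure D3:**
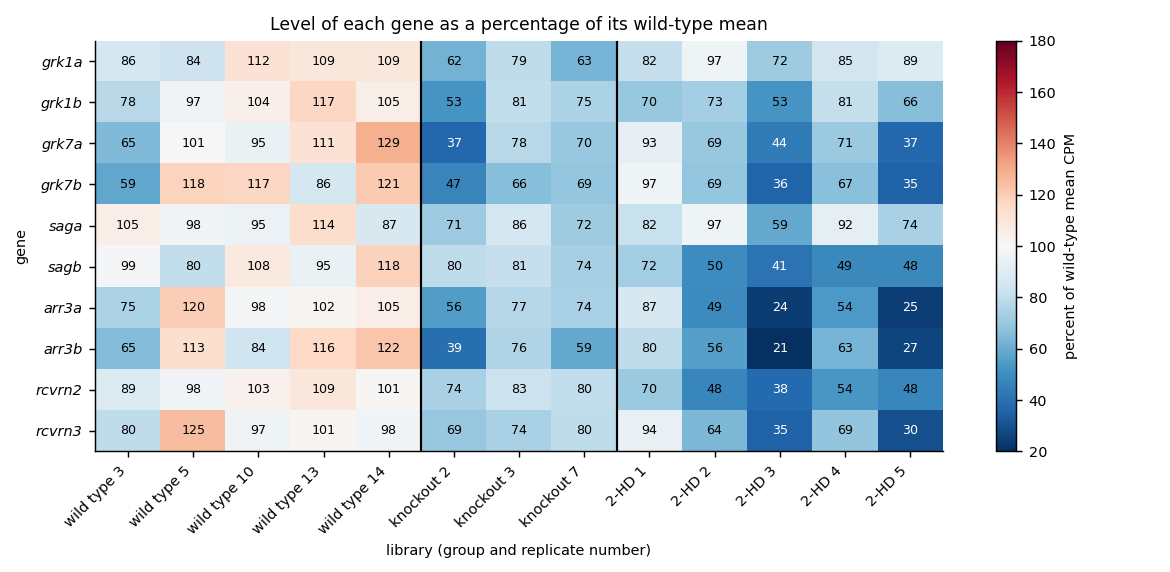
Level of each shutoff gene (rows) in each library (columns) as a percentage of its wild-type mean in CPM, with the value printed in each cell and blue for lower, red for higher. The cells of 2-HD replicates 3 and 5 are lowest for arr3a and arr3b, between 20.5% and 26.5%, whereas grk1a and saga stay at 59.3% or above in these libraries.

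Ratios of the 2 copies within a library do not depend on library scaling and show whether paralogues moved unequally. They were compared for 5 pairs in 3 comparisons with a two-sided exact permutation test, adjusted over the 15 tests. The ratio of saga to sagb counts lay between 0.353 and 0.586 in wild type, between 0.427 and 0.505 in the knockout and between 0.543 and 0.933 with 2-HD. The treated libraries thus held more saga relative to sagb, with 4 of 5 above every wild-type library, by 0.64 on the log2 scale (exact permutation p = 0.0238, adjusted p = 0.179). The ratio of grk1a to grk1b was 0.416 to 0.533 in wild type and 0.507 to 0.657 with 2-HD, higher by 0.32 on the log2 scale (exact permutation p = 0.0238, adjusted p = 0.179). Every knockout library lay below every 2-HD library in the ratio of saga to sagb, a log2 difference of -0.69 with the smallest p that 3 against 5 libraries can give (exact permutation p = 0.0357, adjusted p = 0.179). None of the 15 tests passed after adjustment. No test could have passed alone, since the smallest possible exact permutation p was 0.0357 for 3 against 5 libraries and 0.00794 for 5 against 5. The adjusted result therefore does not show that paralogues moved equally. For the pairs grk7a to grk7b, arr3a to arr3b and rcvrn2 to rcvrn3 the unadjusted exact permutation p was 0.143 or more.

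**Figure D4:**
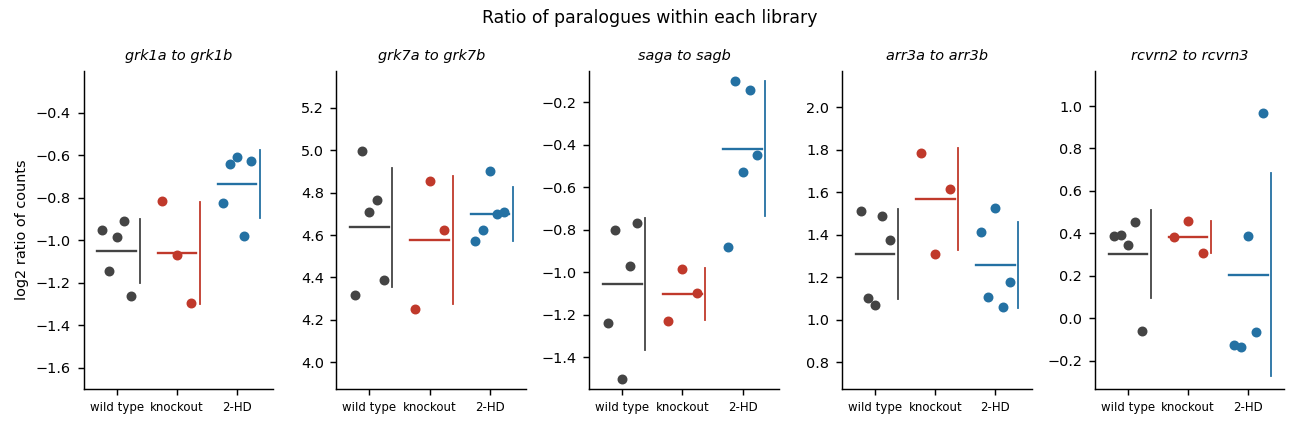
Log2 ratio of the counts of 2 paralogues, each plus 0.5, in each library (points), with group means (horizontal lines) and 1 SD to either side (vertical lines), on axes of equal length that do not start at 0. The 2-HD points lie above most wild-type points for grk1a to grk1b and saga to sagb, and the groups overlap for the remaining pairs.

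Genes that work beside the members were read from lists chosen, like the members, with earlier results of these data known. Counts from all lists stand beside the shares of all genes given above. These were 19.7% lower and 22.7% higher with 2-HD, and 1.86% lower and 4.1% higher in the knockout. The shutoff partners included the RGS9 complex that stops transducin, other recoverins, phosducins, and the guanylate cyclases and their calcium-sensing activators that restore cyclic GMP. The list also held slc24a1, slc24a2 and unc119 genes, of which unc119.1, unc119.2 and unc119b fell with 2-HD. Of the 24 partners measured, 15 fell and 1 rose with 2-HD, with a median log2 fold change of -0.40. Among them rgs9b, of the RGS9 complex, fell from 19.8 ± 1.00 to 14.2 ± 1.78 CPM (SD, n = 5 and 5; edgeR adjusted p = 0.000561), and guca1c, of the cyclase activators, from 30.4 ± 16.5 to 8.53 ± 2.80 CPM (edgeR adjusted p = 0.000907). Its relative guca1a was the gene that rose, from 3.08 ± 1.45 to 9.60 ± 3.14 CPM (edgeR adjusted p = 0.00066). In the knockout 1 of the 24 fell, the cyclase gene gucy2f (13.9 ± 1.72 to 9.82 ± 1.47 CPM, SD, n = 5 and 3, edgeR adjusted p = 0.0381), and 0 rose, with a median of -0.42. Between knockout and 2-HD, guca1a was lower in the knockout (1.75 ± 0.359 CPM, SD, n = 3, edgeR adjusted p = 0.00879), as was the cyclase gene gucy2d (edgeR adjusted p = 0.0395). With wild type replicate 14 and 2-HD replicate 1 left out, the list gave 14 lower and 1 higher with 2-HD and 0 called in the knockout.

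Of 30 measured genes of phototransduction activation, 24 fell and 2 rose with 2-HD (median log2 fold change -0.54), and 5 fell and 0 rose in the knockout (median -0.36). With 2-HD the smallest adjusted p-values belonged to pde6ha (log2 fold change -2.80), gngt1, a rod transducin subunit gene (-0.92), and pde6a, a rod phosphodiesterase gene (-0.60). In the knockout they belonged to gngt2b, a cone transducin subunit gene (-0.82), gngt1 (-0.72) and opn1lw1, a red cone opsin gene whose reads may be shared with its near-identical copy opn1lw2 (-0.95). Of 24 photoreceptor transcription factor and structural genes, 17 fell with 2-HD and 3 in the knockout (medians -0.54 and -0.36), the latter being otx5, a homeobox factor gene (65.1 ± 10.3 to 46.3 ± 3.42 CPM), rs1a, the retinoschisin gene (111 ± 16.6 to 72.3 ± 8.16 CPM), and neurod1, a proneural factor gene (log2 fold change -0.72). With 2-HD the smallest adjusted p-values of that list belonged to rp1l1a, of the outer segment axoneme (-0.90), thrb, the thyroid hormone receptor gene that red cones need (-0.84), and prph2b, of the outer segment rim (-0.79). Genes of several photoreceptor roles were thus lower, and whether the shutoff genes stand apart from them was not tested. Without wild type replicate 14 and 2-HD replicate 1 the activation genes gave 23 lower and 2 higher with 2-HD and 5 lower in the knockout, and the factor and structural genes 18 and 2 lower.

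Relatives that act outside phototransduction were read beside them. Of 20 measured genes of other receptor kinases, beta-arrestins and neuronal calcium sensors, 12 fell and 1 rose with 2-HD, and 0 fell and 1 rose in the knockout, with medians of -0.39 and -0.11. The gene that rose in both was grk5, a widely expressed receptor kinase gene, with a wild-type mean of 2.39 ± 0.565 CPM (SD, n = 5), a knockout mean of 4.42 ± 0.693 CPM (SD, n = 3, edgeR adjusted p = 0.0288) and a 2-HD mean of 6.67 ± 1.34 CPM (SD, n = 5, edgeR adjusted p = 6.29e-05). The genes with the smallest adjusted p among the falls with 2-HD were kcnip1b (log2 fold change -0.73) and vsnl1a (-0.73), both of the neuronal calcium sensor family to which recoverin belongs. The beta-arrestin genes arrb1 and arrb2b, relatives of the visual arrestins, had log2 fold changes of -0.23 and -0.07 with 2-HD (edgeR adjusted p = 0.101 and 0.346). For arrb2a, another beta-arrestin gene, all 2-HD libraries (16.9 to 23.1 CPM) lay below all wild-type libraries (25.2 to 31.4 CPM), as for 12.2% of all genes.

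**Figure D5:**
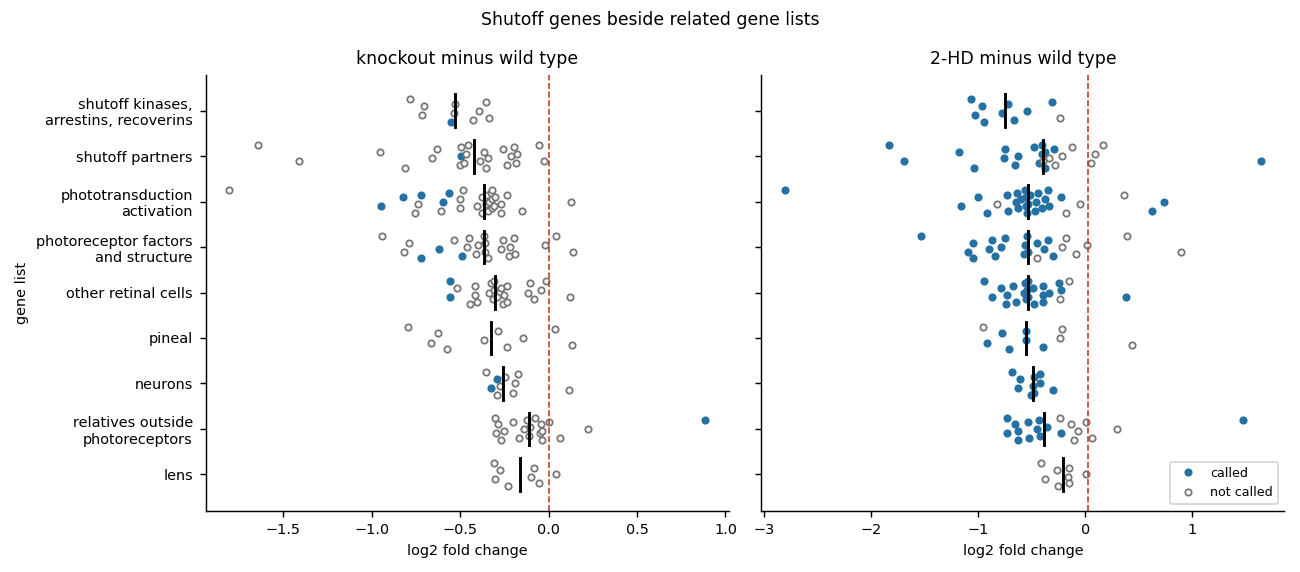
Log2 fold change of each measured gene (points, filled where called by edgeR) by list, with list medians as black bars and the median of all genes tested as a dashed red line, for the knockout (left) and 2-HD (right), on axes of different length. The median of the shutoff genes is -0.53 on the left and -0.75 on the right, and those of the relatives outside photoreceptors are -0.11 and -0.39.

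Markers of other cells that share the eye, the pineal organ or the nervous system moved beside the members. With 2-HD, 21 of 24 markers of other retinal cells fell and 1 rose, 6 of 10 pineal markers fell and 0 rose, 10 of 10 neuronal markers fell, and 0 of 8 lens genes were called either way (edgeR, with medians of -0.53, -0.55, -0.49 and -0.21). Summed over its list, the level of other retinal markers was 2106 to 2489 CPM in wild type, 1793 to 1912 CPM in the knockout and 1465 to 1788 CPM with 2-HD, and the pineal sum was 64.7 to 79.8, 53.5 to 60.2 and 47.0 to 52.0 CPM. In wild type the largest parts of the retinal sum were glula (462 to 676 CPM), gad1b (254 to 305 CPM) and gfap (213 to 312 CPM). The largest part of the pineal sum was lhx4 (20.9 to 30.4 CPM). In libraries of whole larvae, RNA of these markers from the eye or pineal organ cannot be told apart from RNA of other tissues. The neuronal sum was 2534 to 2747, 2130 to 2379 and 1593 to 1998 CPM, and the lens sum overlapped between all groups (2294 to 3528, 1480 to 3260 and 2343 to 2731 CPM). With 2-HD the leading falls were lhx1a of horizontal cells (76.3 to 46.1 CPM), rbpms2a of ganglion cells (log2 fold change -0.74) and gad1b of inhibitory neurons (-0.68) among other retinal markers, lhx4 (-0.78), parapinopsinb (-0.91) and 1 of the rows named parietopsin (-0.55) among pineal markers, and syt1a (-0.68), snap25a (-0.63) and elavl4 (-0.48) among neuronal markers. The lens genes with the highest levels, crybb1l1 and crybb1, averaged 1103 and 887 CPM in wild type and 995 and 667 CPM with 2-HD. In the knockout 2 of 24 other retinal markers fell, rlbp1a (-0.56) and rbpms2b (-0.56). Of 10 neuronal markers 2 fell (syt1a, -0.29, and gap43, -0.33), and 0 of 10 pineal and 0 of 8 lens genes fell. None of these lists held a gene called higher in the knockout. Without wild type replicate 14 and 2-HD replicate 1 the falls in the knockout were 4 other retinal, 2 pineal, 1 neuronal and 0 lens genes. The part of these cells in the members' levels was not tested.

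Several cone shutoff genes of zebrafish are known to follow a daily rhythm, so clock genes were read as well, from a list added after the members' values were seen. With 2-HD, 17 of 33 fell and 4 rose (median log2 fold change -0.46), beside 19.7% lower and 22.7% higher of all genes. Among those called was arntl1a, a core clock gene (27.7 ± 7.41 to 13.4 ± 1.59 CPM, SD, n = 5 and 5, edgeR adjusted p = 0.000181). Others were rorca, of the ROR family (log2 fold change -1.34), and nr1d4a, of the REV-ERB family (7.10 ± 1.85 to 22.8 ± 6.11 CPM, edgeR adjusted p = 8e-05). In the knockout 0 of 33 were called by edgeR, beside 5.97% of all genes. The labels give no time of collection, and the part of the clock in the members' levels was not tested.

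Other genes were ranked over the 13 libraries by Pearson r of their log2 CPM with the mean of the 10 members' standardised log2 CPM. Genes with placeholder or clone symbols were left out of the ranking. Those that followed the mean most closely included tfap2b (0.987), kctd15a (0.974), gnb3b (0.972), pdcb (0.971), CABP4 (0.965), rph3aa (0.965), prph2a (0.958), hprt1l (0.957) and chn1 (0.956). These values describe the libraries and carry no test, since the libraries share 3 group differences and 1 scaling. The list holds photoreceptor genes, such as gnb3b of cone transducin (941, 637 and 600 CPM on average in wild type, knockout and 2-HD), pdcb, a phosducin gene (153, 111 and 98.9 CPM), and prph2a of the outer segment rim (214, 148 and 157 CPM). It is led by tfap2b, an AP-2 transcription factor gene of amacrine and other neurons (66.6, 49.9 and 45.5 CPM). Among the members themselves, arr3b followed the mean most closely (0.976) and grk1a least (0.633). Each member is part of that mean, which raises its r, so these values do not compare with those of the outside genes.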

How the data were processed

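The authors deposited raw read counts per gene for 13 libraries. Per the labels' protocols RNA was extracted with TRIzol and sequenced on a BGISEQ-500. GRCz11 is the build, and featureCounts 2.0.1, HISAT2 2.2.1 and Trim Galore 0.6.7 are the tools, named in the submitters' processing notes. Annotation, strand setting and handling of multiply mapped reads are not given in the sources used here, so reads of close paralogues, overlapping genes and antisense partners may be split or shared. A wild-type library is numbered 1 by its title and 3 by its description. It is called replicate 3 here, as in the count table.

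The main test was that of edgeR 4.0.16, run in R 4.3.3 (filterByExpr with a minimum count of 10, TMM scaling, a quasi-likelihood fit of 3 group means to all 13 libraries, Benjamini-Hochberg adjustment over 22158 genes, calls at an adjusted p under 0.05). The biological coefficient of variation was 0.151. Standard errors come from the log2 fold change and its F statistic. Exact permutation tests used SciPy 1.17.1. The steps were tested on simulated data. Libraries of a group differed beyond sampling noise (chi-square per degree of freedom 4.91 to 26.1), so none was treated as a duplicate. All 10 members were named; from each list, up to 3 called genes with the smallest adjusted p per comparison; and the 10 genes most alike, of which 1 is not reported here. Other genes (rho, opn1sw1, arrb1, arrb2a, arrb2b and the clock genes) were chosen after their values were seen. Members and lists were chosen with earlier results of these data known. Alternatives were DESeq2 1.42.0, RLE size factors, no filter, fits of 2 groups, a replicate block, and leaving out libraries. Levels of the members are not compared with each other, since lengths and sequences were not used here. Where genes of a list are ranked by level, the ranking is by CPM without correction for length.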

Additional observations from a re-analysis of the deposited data

Results flagged for a closer look

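Of 30 sets of 5 libraries examined (10 member levels and 5 paralogue ratios, in wild type and with 2-HD), 2 had a library far from the other 4 by Dixon's criterion, and chance alone flags about 1 in 20 such sets. The level of sagb in 2-HD replicate 1 was 131 CPM, above the 74.4 to 89.9 CPM of the other 2-HD libraries and below all wild-type libraries. The ratio of rcvrn2 to rcvrn3 counts in wild type replicate 5 was 0.959, while the other 4 wild-type libraries held 1.27 to 1.37.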

How the results depend on the processing

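Leaving out 1 library at a time, the count of called genes ranged from 3 to 2071 for the knockout against wild type, from 8120 to 9968 for 2-HD against wild type and from 81 to 3229 for knockout against 2-HD. The lowest knockout counts were those without knockout replicate 3 (3 genes) and 7 (4 genes), and between knockout and 2-HD the lowest was without knockout replicate 3 (81) and the highest without 2-HD replicate 1 (3229). Members called lower ranged from 0 to 2 in the knockout and from 6 to 8 with 2-HD, and members higher in the knockout than with 2-HD from 0 to 3. DESeq2 called 2400 genes and 2 members in the knockout, and 2376 genes between knockout and 2-HD. With only the 2 groups compared in the fit, 102 genes and 0 members were called in the knockout, and 0 members between knockout and 2-HD, while 7 members were lower with 2-HD, grk7b (adjusted p = 0.0544) and saga (0.0593) being lost. Without wild type replicate 14 and 2-HD replicate 1 together, 3494 genes were called between knockout and 2-HD. A replicate block on the numbers in the labels, which are not stated to pair libraries and whose same-numbered deviations correlated between -0.00416 and 0.264, gave 2 genes and 0 members in the knockout, 4230 genes and 4 members lower with 2-HD (lost were grk1b at an adjusted p of 0.24, arr3b at 0.0773, grk7a at 0.259, grk7b at 0.129 and saga at 0.133), and 333 genes between knockout and 2-HD. A replicate block gives no weight in the comparisons to a library whose number no other library shares. Those were wild type replicates 10, 13 and 14, knockout replicate 7 and 2-HD replicates 1 and 4. Calls lost under the block therefore cannot be read as an effect of pairing. The cause of the other shifts was not tested.

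Signs changed in 28 instances, and none of the values with the changed sign was called (adjusted p of 0.708 or more). Under the replicate block these were the log2 values of grk1a with 2-HD (0.013) and of grk7a (0.18) and saga (0.018) between knockout and 2-HD. Without wild type replicate 14 and 2-HD replicate 1 together, grk7a between knockout and 2-HD came to 0.16 and the knockout difference in the grk1a to grk1b ratio to 0.0059. Leaving out 1 library gave, between knockout and 2-HD, ranges of -0.10 to 0.18 for grk1b, -0.24 to 0.22 for grk7a, -0.14 to 0.24 for grk7b and -0.26 to 0.037 for the grk7a to grk7b ratio. For ratios in the knockout the ranges were -0.13 to 0.11 (grk1a to grk1b), -0.20 to 0.10 (grk7a to grk7b), -0.16 to 0.024 (saga to sagb) and -0.012 to 0.12 (rcvrn2 to rcvrn3), and for grk7a to grk7b with 2-HD -0.0152 to 0.15. RLE size factors and an added count of 2 in the ratios changed no call of a member or a ratio, and without the filter only the 2-HD call of saga was lost (adjusted p = 0.0539).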
